A study of Homo sapiens with 18 samples.

Results

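The 44 genes described here are induced by interferon or take part in the sensing of double-stranded RNA. They were taken by symbol from a list that was drawn up with earlier results of these data known, by a rule that uses no measured value. Each symbol matched 1 Ensembl gene ID among the 60675 genes listed, of which 43853 had at least 1 read. Poly(A) RNA Seq libraries came from 2 human prostate cancer cell lines, LNCaP, which is androgen-dependent, and C4-2, a castrate-resistant line derived from it. All cells were in medium with hormone-depleted serum and were transfected with an siRNA pool for 72 h. In each line the groups were a non-targeting pool (siScr) with vehicle, siScr with 1 nM R1881, and pools against the lysine demethylases KDM1A and KDM7A together (dual knockdown) with 1 nM R1881, at 3 libraries per group and 18 in all. R1881 is a synthetic androgen. Knockdown cells without R1881 were not analysed here, so the dual knockdown is compared with siScr under R1881 only, and in each line this comparison and that of R1881 with vehicle share the same siScr R1881 libraries.

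Type I interferons bind a receptor on the cell surface, and the kinases JAK1 and TYK2 are then activated. STAT2 and IRF9 are part of the complex that afterwards binds the interferon-stimulated response element in the promoters of induced genes. Double-stranded RNA in the cytoplasm, from viruses or from transcribed repeats, is detected by RIG-I, MDA5 (the product of IFIH1), PKR (EIF2AK2) and the oligoadenylate synthetases, and RIG-I and MDA5 signal through MAVS to IRF3 and IRF7. KDM1A, also called LSD1, removes methyl groups from histone H3 and is known as a repressor of endogenous retroviral transcripts, whose double-stranded RNA can set off this pathway.

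The libraries held 3182604 to 20154243 counted fragments, the lowest being C4-2 vehicle replicate 3, and the 44 genes took 0.109% to 0.156% of them. KDM1A was at 104, 108 and 113 CPM (read counts scaled to a common library size) in LNCaP siScr libraries with R1881 and at 48.5, 52.2 and 54.1 CPM after dual knockdown. In C4-2 it was at 146, 139.6 and 141 CPM and, after dual knockdown, at 14.8, 19.9 and 14.6 CPM. The knockdown was deeper in C4-2, with a log2FC of −3.12 ± 0.11 (SE) against −1.05 ± 0.06 for KDM1A (difference adjusted p = 2.36e-09) and of −2.51 ± 0.11 against −0.93 ± 0.09 for KDM7A (difference adjusted p = 6.06e-07). Every difference between the lines in the response to knockdown stands beside that gap, and the part of the gap in it was not tested. The C4-2 vehicle libraries carry C4-2 in their titles and LNCaP in another label, and over the other genes their log2 CPM correlated more closely with the remaining C4-2 libraries (mean Pearson r 0.937 to 0.968) than with LNCaP libraries (0.880 to 0.904). The summed CPM of 8 prostate epithelial markers was 2172 to 11685 in the libraries, that of 6 leukocyte markers 0.220 to 3.73, of 4 fibroblast markers 7.03 to 36.3 and of 3 endothelial markers 5.24 to 20.8. Of the 6 leukocyte markers, 2 were tested for R1881 in C4-2, where 1 rose (log2FC 3.11) and PTPRC fell (log2FC −4.93). PTPRC was at 3.21, 2.35 and 1.75 CPM in C4-2 with vehicle and at 0, 0.0562 and 0.184 CPM with R1881. The part of these 2 markers in the results was not tested. As the RNA is from whole cultures, fewer cells expressing a gene and less RNA per cell cannot be told apart.

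RefSeq promoter windows (GRCh38.p14, 250 bases before to 50 bases after the start) were given for 37 of the 44 genes, all but OAS2, OASL, IFIT2, IRF7, USP18, MX2 and IFITM2. The letters GAAANNGAA, the core of the interferon-stimulated response element, occurred on either strand in 24 of the 37 windows (64.9%), against 2264 of 27305 promoters of the same length (8.29%). The letters TTCNNNGAA, an interferon-gamma activated site, occurred in 9 of 37 (24.3%) against 2152 of 27305 (7.88%). The 2 motifs can share bases, as they do in BST2, IFITM1 and IFI27. A match is a description of the letters and not of a bound site. Of the 15 genes that fell with R1881 in C4-2, 14 had a window and 10 of those held the response element core. Of the 12 that rose with dual knockdown in C4-2, 11 had a window and 8 held it. Of the 15 that rose with R1881 in LNCaP, 12 had a window and 9 held it. These shares lie near the 64.9% of all 37 windows. The stretches below show the promoters of 4 genes that moved with R1881 in opposite directions in the 2 lines (IFIT1, IFIT3, SAMD9 and OAS3), of HERC5, which rose with R1881 in both, and of IRF1, which fell in both. Each is read 5′ to 3′ in the sense of the gene and ends just before the outermost annotated start. Capitals mark the response element core, and in IRF1, which has no core, the activated site. The stretch of OAS3 ends 122 bases before its RefSeq start. A further core of OAS3, at −12 to −4 bases from that start, is therefore not shown.
IFIT1, plus strand of chr10:89392421-89392545: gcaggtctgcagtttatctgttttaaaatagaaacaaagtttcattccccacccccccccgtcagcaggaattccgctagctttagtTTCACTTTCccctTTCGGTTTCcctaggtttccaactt
IFIT3, plus strand of chr10:89327769-89327893: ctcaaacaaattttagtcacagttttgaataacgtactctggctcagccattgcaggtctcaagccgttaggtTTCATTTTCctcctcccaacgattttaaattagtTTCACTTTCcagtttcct
SAMD9, minus strand of chr7:93118024-93118148: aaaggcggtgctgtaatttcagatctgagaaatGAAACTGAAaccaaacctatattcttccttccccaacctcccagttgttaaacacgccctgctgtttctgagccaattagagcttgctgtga
OAS3, plus strand of chr12:112938227-112938351: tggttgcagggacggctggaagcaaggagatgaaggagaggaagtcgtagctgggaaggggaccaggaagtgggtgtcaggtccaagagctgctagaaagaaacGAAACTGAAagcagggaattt
HERC5, plus strand of chr4:88456992-88457116: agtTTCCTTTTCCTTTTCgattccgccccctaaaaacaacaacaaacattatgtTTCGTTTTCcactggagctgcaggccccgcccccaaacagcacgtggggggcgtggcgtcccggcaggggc
IRF1, minus strand of chr5:132490799-132490923: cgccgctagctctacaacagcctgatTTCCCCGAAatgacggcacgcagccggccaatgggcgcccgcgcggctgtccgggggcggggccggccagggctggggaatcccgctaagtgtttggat
OAS1 and IFI35, which also moved in opposite directions in the lines, held an activated site and no response element core.

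**Figure D1:**
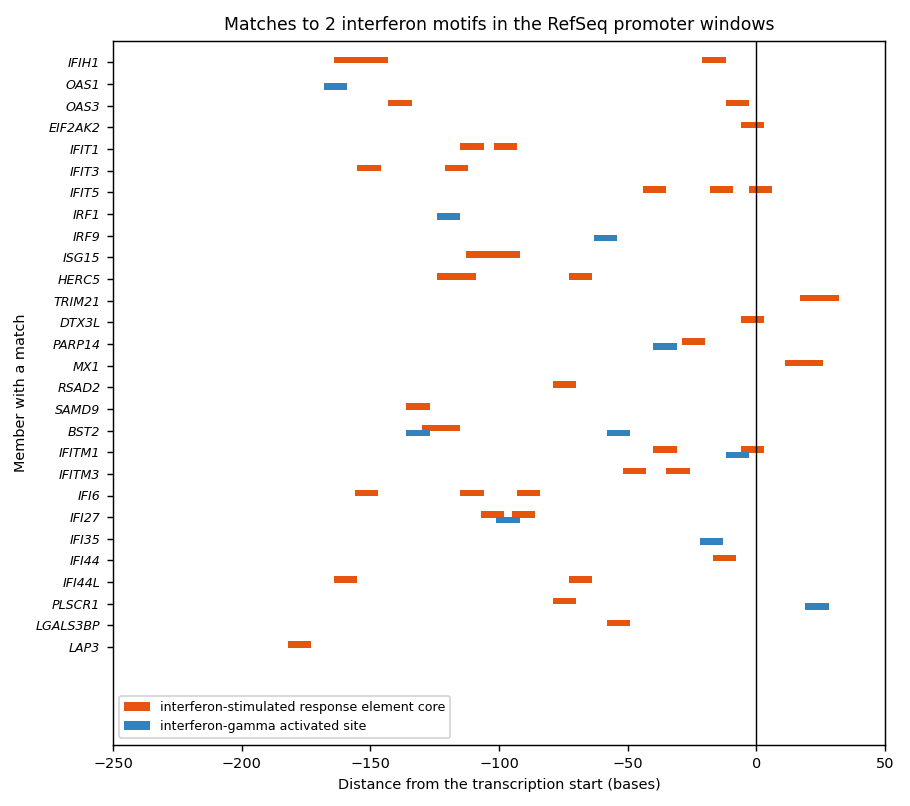
Positions of the 2 motifs in the promoter windows of the genes with a match, in bases from the RefSeq transcription start (x axis; 0 is the first transcribed base), one gene per line. Most cores lie before the start, and those of TRIM21 and MX1 lie after it, while 1 core each of EIF2AK2, DTX3L, IFIT5 and IFITM1 spans it.

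With R1881 more of these genes rose than fell in LNCaP, and more fell than rose in C4-2. In LNCaP, 15 genes rose and 4 fell, among them OAS1, SAMD9, HERC5 and HERC6, which rose, whereas in C4-2 3 rose and 15 fell, among them IRF1, IFIT3, IFI35 and OAS3, which fell. A gene was called at an adjusted p under 0.05 in edgeR's quasi-likelihood test, adjusted by Benjamini-Hochberg over all genes tested. Every adjusted p here is from that test unless another is named. These p-values measure only the spread between these libraries, since nothing in the labels says that replicates came from separate cultures. In LNCaP 40 of the 44 genes passed the filter on low counts and 19 of these were called (47.5%), near the 46.6% of 17162 genes called in all. The 15 that rose were 37.5% of those tested against 23.5% of all genes, and the median log2FC was 0.17 over the 40 genes and −0.04 over all genes. In C4-2 39 of 44 passed the filter and 18 were called (46.2%), against 32.8% of 16965 genes. The 15 that fell were 38.5% against 15.7% of all genes, and the median log2FC was −0.32 over the 39 genes and −0.02 over all genes. When the log2FC also had to reach 1 in size, 8 genes were higher and 1 lower in LNCaP, where 12.3% of all genes were called (5.68% higher and 6.62% lower). In C4-2 2 were then higher and 9 lower, where 9.07% of all genes were called (4.29% higher and 4.78% lower).

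Of the 37 genes tested in both lines, 7 rose in LNCaP and fell in C4-2, namely IFIT1, IFIT3, IFI35, OAS1, OAS3, SAMD9 and DTX3L. They were 18.9% of the 37, against 0.83% of the 15775 genes tested in both lines. Among the 7, the rises of IFIT3, OAS3 and DTX3L in LNCaP lost their calls in some fits without 1 library. So did the fall of IFIT1 in C4-2. No gene of the list fell in LNCaP and rose in C4-2 (0.488% of all genes). HERC5 and HERC6 rose in both lines (12.8% of all genes), and IFIT5, IRF1 and TRIM25 fell in both (9.19% of all genes), while 14 of the 37 were called in neither. When the difference between the lines was tested itself, 16 of 42 genes were called (38.1%, against 14.0% of 18684 genes). Of these 15 were lower in C4-2 than in LNCaP (7.95% of all genes) and 1, HERC5, higher (6.05% of all genes). Among them 13 also reached a log2FC difference of 1 in size, against 4.32% of all genes. The 15 were DTX3L, IFI35, IFIH1, IFIT1, IFIT2, IFIT3, IFITM3, IRF1, ISG15, LGALS3BP, OAS1, OAS2, OAS3, RSAD2 and SAMD9. Where a call is given as lost without certain libraries, each was left out alone. Under the 8 alternatives of scaling, filter, test and model the 16 and the 13 stayed within 1.5 times, except where at least 10 counts in every library were asked, a filter that 25 of the 44 genes passed. There 10 were called, of which 7 reached a difference of 1 in size.

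**Figure D2:**
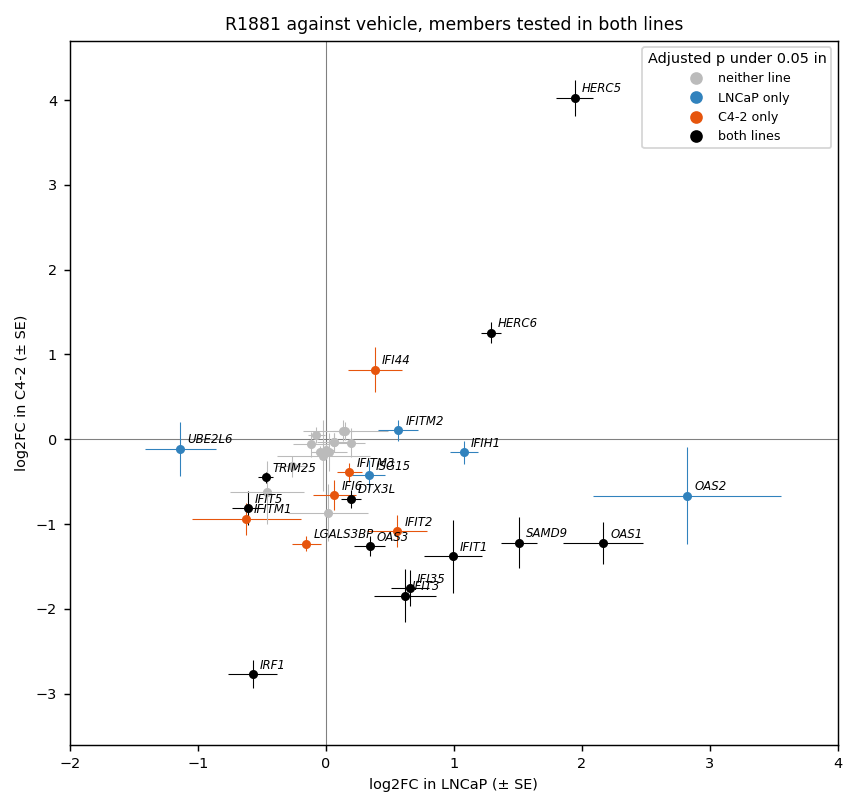
Log2FC of R1881 against vehicle in LNCaP (x axis) and in C4-2 (y axis), with SE, for the 37 genes tested in both lines, coloured by the lines in which the adjusted p was under 0.05. The 7 genes called in opposite directions lie at the lower right, and HERC5 and HERC6 at the upper right.

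Dual knockdown in the presence of R1881 raised a group of these genes in C4-2 and moved few of them in LNCaP. In C4-2 SAMD9, IFIT1, IFI35, IFIT3 and OAS1 rose with a log2FC above 1, and IFI6, OAS3, PARP14, HERC5, IRF1, DTX3L and USP18 by less, while LAP3 fell. These 13 called genes were 33.3% of 39, against 23.5% of 16965 genes, and the 12 that rose were 30.8% against 12.7%. With the GC trend removed 14 rose and 4 fell, and with only the groups compared in the fit 13 rose and 3 fell. The 5 past a log2FC of 1, all higher, were 12.8%, against 3.94% of all genes called in either direction and 2.5% called higher. The median log2FC was 0.24 over the 39 genes and 0.01 over all. In LNCaP IFI6, ISG15, IRF7 and IFITM3 rose and ADAR fell, each with a log2FC under 1 in size. These 5 were 12.5% of 40, against 14.2% of 17162 genes, a share near the background, with 8.27% of all genes called higher. None reached a log2FC of 1 in size, as 0.286% of all genes did, and the median log2FC was 0.05. All 4 increases in LNCaP lost the call when a trend with GC content was removed from each library, which left 1 gene, ADAR. Leaving out 1 library gave 0 genes without dual knockdown replicate 1 or siScr R1881 replicate 2, 1 without dual knockdown replicate 2 and 2 without siScr R1881 replicate 3.

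The difference between the lines in the response to dual knockdown was called for 11 of 42 genes (26.2%, against 10.9% of 18684 genes). DTX3L, HERC5, IFI35, IFIT1, IFIT2, IFIT3, OAS3, PARP14, SAMD9 and STAT2 were higher in C4-2 (6.97% of all genes) and LAP3 was lower (3.88%). Of the 11, 5 reached a difference of 1 in size, against 1.99% of all genes. OAS1, IFI6, IRF1 and USP18, called in C4-2, did not pass this test of the difference. Without C4-2 dual knockdown replicate 2 the count was 7. Of the 37 genes tested in both lines, 1 (IFI6) rose in both (2.22% of all genes). None was called in opposite directions, as 0.139% of all genes were with a rise in LNCaP and 0.209% with a rise in C4-2.

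**Figure D3:**
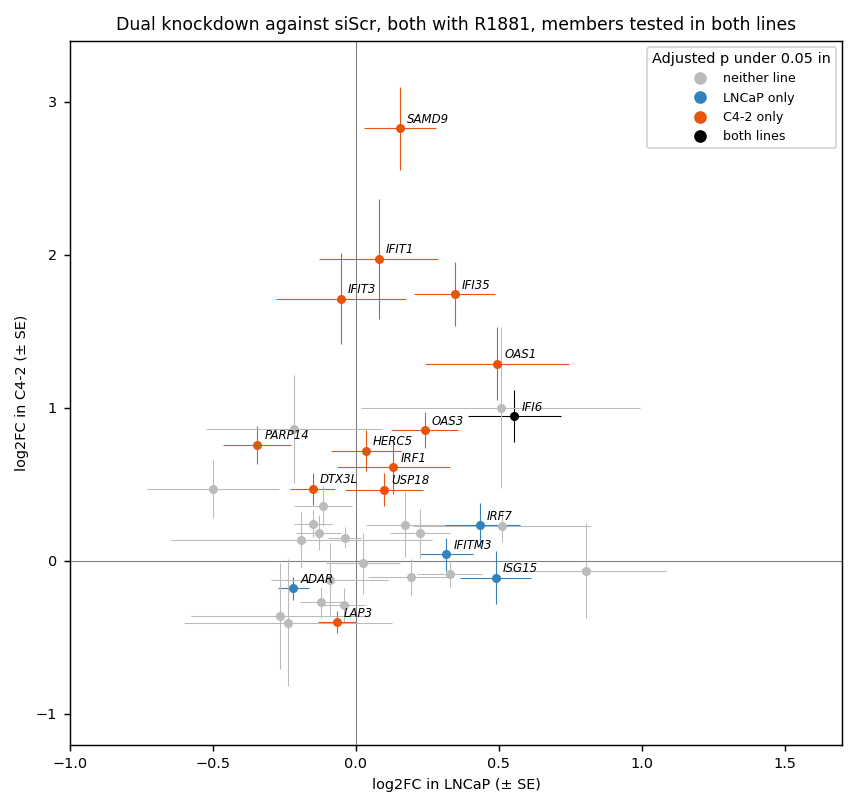
Log2FC of dual knockdown against siScr, both with R1881, in LNCaP (x axis) and C4-2 (y axis), with SE, for the 37 genes tested in both lines, coloured by the lines in which the adjusted p was under 0.05. SAMD9, IFIT1, IFI35 and IFIT3 lie above 1 on the C4-2 axis and between −0.05 and 0.35 on the LNCaP axis. OAS1 also lies above 1 on the C4-2 axis, and farther right than these on the LNCaP axis.

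**Figure D4:**
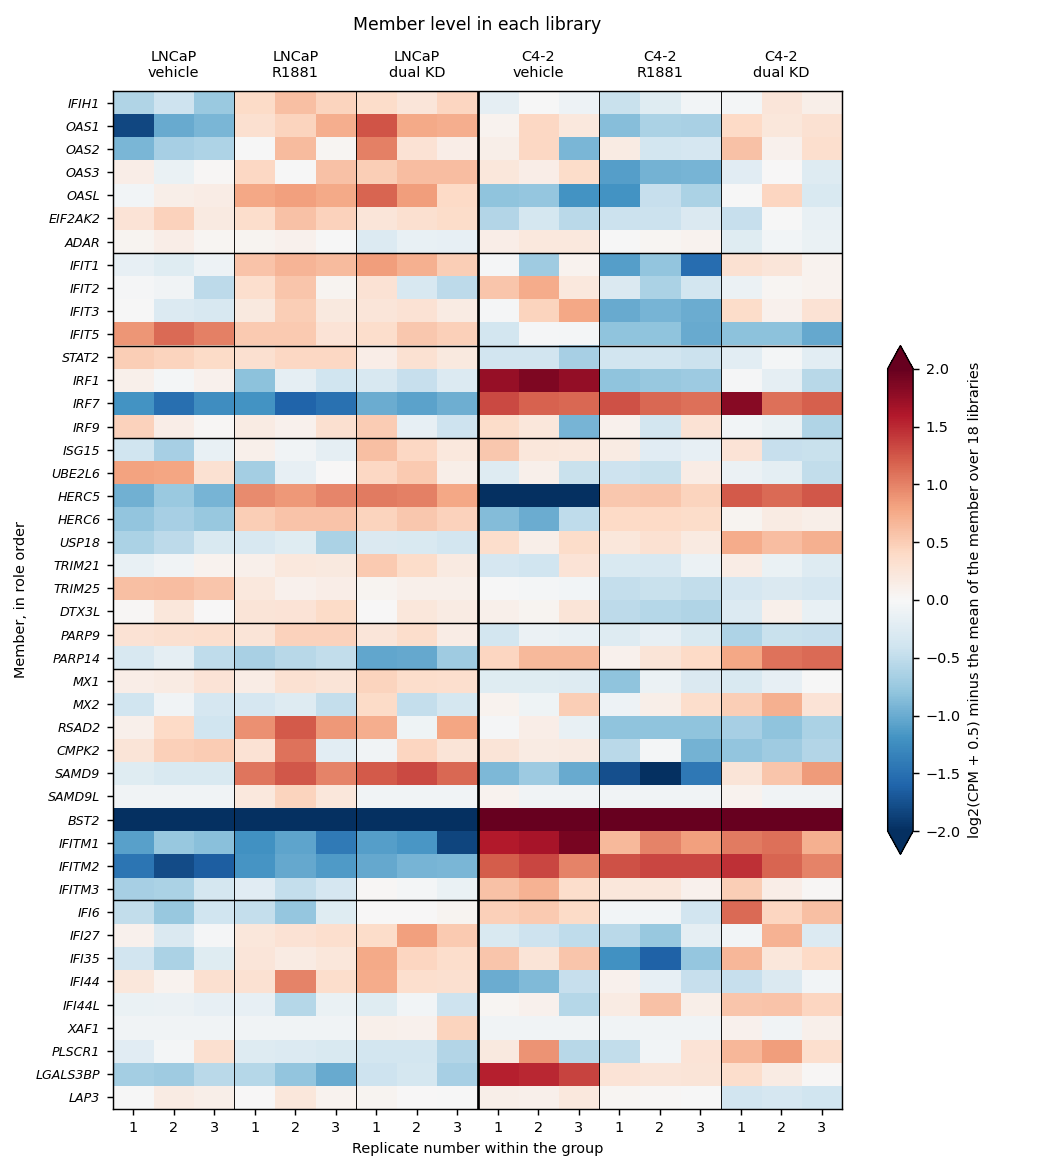
Level of all 44 genes in each of the 18 libraries, as log2(CPM + 0.5) minus the mean of the gene over the libraries (colour, cut at 2 in either direction), with genes in order of role (lines separate the roles) and libraries in order of group. BST2, IFITM2 and IRF7 separate the lines, and IFIT1, IFIT3, OAS3 and IFI35 are lowest in the C4-2 siScr libraries with R1881.

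Among the sensors and effectors of double-stranded RNA, 5 of 7 tested genes rose with R1881 in LNCaP (23.5% of all genes) and 2 of 6 fell in C4-2 (15.7% of all genes). OAS1 makes the 2′-5′ oligoadenylates that activate RNase L (chr12:112906777-112933222, GRCh38 as all positions here, plus strand). It was at 0.263, 0.835 and 0.934 CPM in LNCaP with vehicle and at 2.84, 3.15 and 3.96 CPM with R1881 (log2FC 2.17 ± 0.31, adjusted p = 2.52e-05). In C4-2 it was at 2.33, 3.09 and 2.62 CPM with vehicle, 0.990, 1.24 and 1.22 CPM with R1881 and 3.05, 2.63 and 2.80 CPM with dual knockdown. The groups did not overlap in LNCaP, and in C4-2 all R1881 libraries lay below all vehicle libraries (log2FC −1.22 ± 0.25, adjusted p = 0.00178) and below all knockdown libraries (log2FC 1.29 ± 0.24, adjusted p = 0.00151). The R1881 responses of the lines differed by −3.41 ± 0.41 (adjusted p = 3.90e-06). Dual knockdown in LNCaP left it at 5.89, 4.06 and 3.95 CPM, overlapping siScr (log2FC 0.49 ± 0.25, adjusted p = 0.208).

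OAS3, the largest of the synthetases, was at 28.7, 26.7 and 31.8 CPM in C4-2 with vehicle, 11.1, 12.4 and 12.5 CPM with R1881 and 20.7, 24.4 and 20.3 CPM with dual knockdown. Each group lay apart from the others, with the knockdown libraries between the vehicle and the R1881 libraries (log2FC −1.26 ± 0.12, adjusted p = 1.32e-06 for R1881 and log2FC 0.86 ± 0.12, adjusted p = 0.000126 for knockdown). In LNCaP it was at 26.7, 22.3 and 24.8 CPM with vehicle, 32.7, 24.3 and 36.7 CPM with R1881 and 34.5, 37.6 and 37.7 CPM with dual knockdown, and R1881 replicate 2 lay among the vehicle libraries (log2FC 0.34 ± 0.12, adjusted p = 0.0277). This LNCaP call was lost without LNCaP siScr R1881 replicate 1 or 3 or LNCaP vehicle replicate 2 (adjusted p up to 0.157). That of the difference between the lines in knockdown (0.64 ± 0.17) was lost without C4-2 dual knockdown replicate 2, C4-2 siScr R1881 replicate 1, LNCaP dual knockdown replicate 1 or LNCaP siScr R1881 replicate 3 (adjusted p up to 0.0786). OAS2 was under 2 CPM in every library and rose with R1881 in LNCaP (log2FC 2.82 ± 0.74, adjusted p = 0.0047), from 0, 2 and 2 to 8, 13 and 8 reads. OASL, which has lost the synthetase activity, was also under 3 CPM throughout and rose in LNCaP (log2FC 1.02 ± 0.34, adjusted p = 0.0194). IFIH1, the sensor MDA5, was at 9.71, 11.1 and 8.79 CPM in LNCaP with vehicle and 19.8, 23.2 and 20.7 CPM with R1881, with no overlap (log2FC 1.08 ± 0.11, adjusted p = 3.43e-07). In C4-2 its vehicle and R1881 libraries overlapped (log2FC −0.15 ± 0.14, adjusted p = 0.432), and the responses differed by −1.25 ± 0.17 (adjusted p = 2.80e-05).

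ADAR, which edits adenosine to inosine in double-stranded RNA and so keeps cellular RNA from being sensed, had the highest level per length of the sensors and effectors in every group. It was at 395, 401 and 378 CPM in LNCaP siScr with R1881 and 315, 342 and 339 CPM with dual knockdown, all knockdown libraries being lower (log2FC −0.22 ± 0.05, adjusted p = 0.015). In C4-2 the values were 377, 389 and 397 and 321, 364 and 347 CPM, again without overlap, and the test was not passed (log2FC −0.18 ± 0.08, adjusted p = 0.106). The LNCaP call was lost without LNCaP dual knockdown replicate 1 or LNCaP siScr R1881 replicate 2 (adjusted p up to 0.0673). EIF2AK2, the kinase PKR, was not called for R1881 or knockdown in either line, with log2FC between −0.13 and 0.18.

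The IFIT proteins bind viral or incompletely capped RNA, and their genes lie together on chromosome 10 (chr10:89392546-89406486 for IFIT1 and chr10:89327894-89340971 for IFIT3, both on the plus strand). IFIT1 was at 1.40, 1.30 and 1.48 CPM in LNCaP with vehicle and 2.68, 2.93 and 2.82 CPM with R1881, every R1881 library being higher (log2FC 0.99 ± 0.23, adjusted p = 0.00173). In C4-2 it was at 1.60, 0.802 and 1.75 CPM with vehicle and 0.495, 0.731 and 0.245 CPM with R1881, the latter resting on 9, 13 and 4 reads, and every R1881 library was lower (log2FC −1.38 ± 0.43, adjusted p = 0.0224). With dual knockdown it was at 2.14, 2.03 and 1.75 CPM in C4-2, above all siScr R1881 libraries (log2FC 1.98 ± 0.39, adjusted p = 0.00232), with replicate 3 just below the highest vehicle library. In LNCaP the knockdown libraries, at 3.30, 2.99 and 2.51 CPM, overlapped those of siScr (log2FC 0.08 ± 0.21, adjusted p = 0.848). The lines differed by −2.38 ± 0.45 in the R1881 response (adjusted p = 0.000807) and by 1.92 ± 0.42 in the knockdown response (adjusted p = 0.00445). The call of the fall in C4-2 was lost without C4-2 siScr R1881 replicate 1 or 3 or C4-2 vehicle replicate 1 (adjusted p up to 0.155).

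IFIT3 was at 1.81, 2.69 and 3.50 CPM in C4-2 with vehicle, 0.660, 0.731 and 0.673 CPM with R1881 and 2.51, 1.98 and 2.37 CPM with dual knockdown. The siScr R1881 libraries were the lowest of the 3 groups, without overlap, and those of vehicle and knockdown overlapped (log2FC −1.84 ± 0.31, adjusted p = 0.000372 for R1881 and log2FC 1.71 ± 0.30, adjusted p = 0.000901 for knockdown). In LNCaP it was at 1.84, 1.44 and 1.37 CPM with vehicle, 2.19, 2.78 and 2.18 CPM with R1881 and 2.28, 2.35 and 2.13 CPM with dual knockdown (log2FC 0.62 ± 0.24, adjusted p = 0.0436 for R1881 and log2FC −0.05 ± 0.23, adjusted p = 0.908 for knockdown). The rise in LNCaP was lost without LNCaP dual knockdown replicate 2, LNCaP siScr R1881 replicate 1, 2 or 3 or LNCaP vehicle replicate 2 or 3 (adjusted p up to 0.128), with DESeq2 (adjusted p = 0.0891) and with no filter on low counts (adjusted p = 0.127). The differences between the lines were −2.47 ± 0.37 for R1881 (adjusted p = 5.87e-05) and 1.80 ± 0.35 for knockdown (adjusted p = 0.00214). IFIT2 fell with R1881 in C4-2 from 7.14, 8.25 and 5.54 to 3.79, 2.87 and 3.55 CPM (log2FC −1.08 ± 0.19, adjusted p = 0.000533). With dual knockdown it was at 4.33, 4.88 and 4.99 CPM (log2FC 0.47 ± 0.19, adjusted p = 0.0875). Its 3 knockdown libraries lay above those of siScr without passing the test. The difference between the lines in the knockdown response of IFIT2 (log2FC 0.99 ± 0.31, adjusted p = 0.0453) lost its call in 12 of 18 fits without 1 library (adjusted p up to 0.126). IFIT5 fell with R1881 in both lines (−0.61 ± 0.13 in LNCaP and −0.81 ± 0.20 in C4-2 on the log2 scale).

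**Figure D5:**
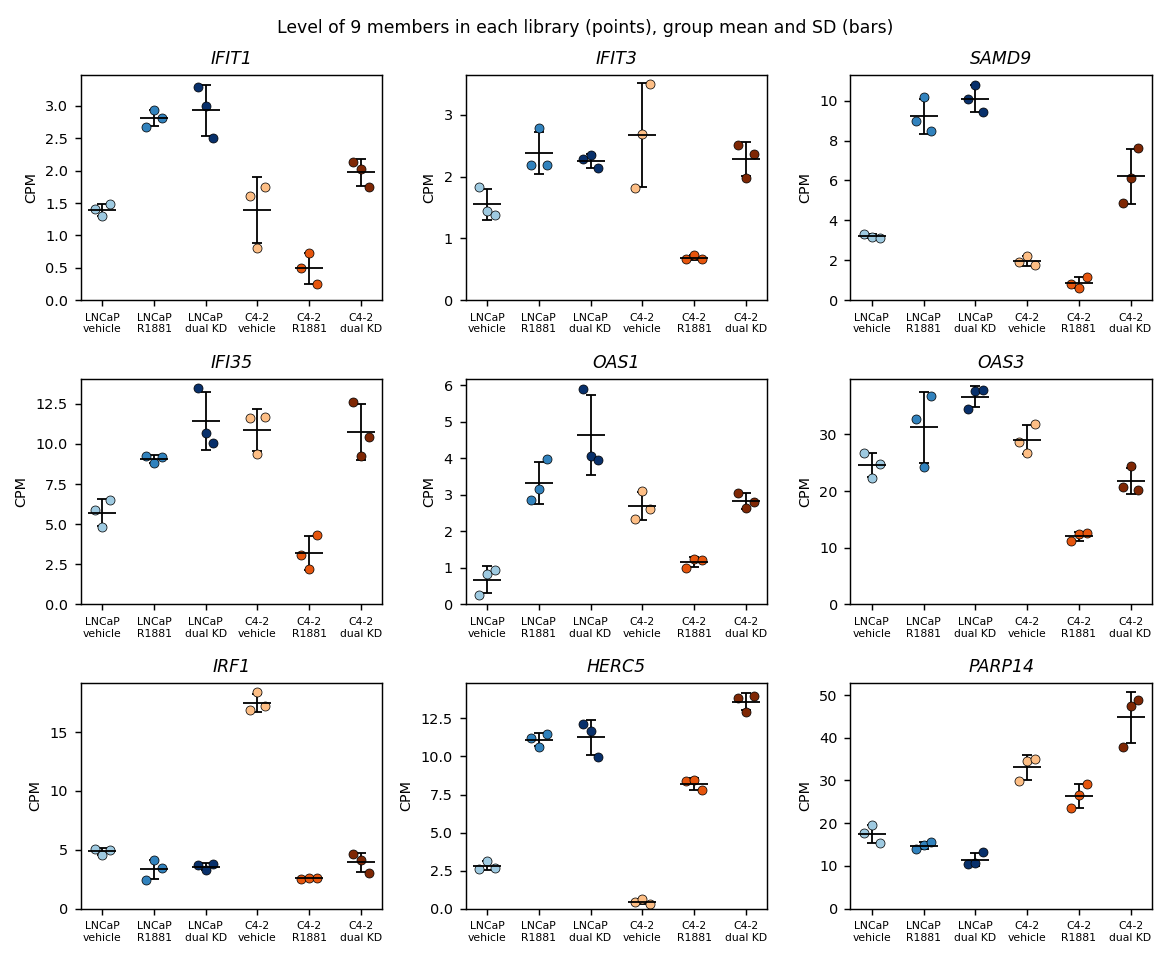
CPM of 9 genes (y axis, from 0) in each library (points, 3 per group), with the group mean and SD (bars), for LNCaP and C4-2 with vehicle, R1881, and dual knockdown with R1881 (dual KD). In C4-2 IFIT1, IFIT3, SAMD9, IFI35, OAS1 and OAS3 are lowest with R1881, while IRF1 stays far below its vehicle level under knockdown and HERC5 goes on rising.

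Of the transcription factors, IRF1 had the largest fall with R1881 in C4-2. IRF1 is itself induced by interferon and activates many of the other genes. It was at 16.9, 18.4 and 17.2 CPM in C4-2 with vehicle, 2.47, 2.59 and 2.63 CPM with R1881 and 4.60, 4.12 and 3.05 CPM with dual knockdown. The vehicle libraries stood far above the rest (log2FC −2.77 ± 0.17, adjusted p = 1.08e-08). All knockdown libraries lay above siScr R1881 (log2FC 0.61 ± 0.17, adjusted p = 0.0189). This second call was lost without C4-2 dual knockdown replicate 1 or 2 or C4-2 siScr R1881 replicate 1, 2 or 3 (adjusted p up to 0.0675). In LNCaP it was at 5.08, 4.55 and 4.999 CPM with vehicle and 2.46, 4.10 and 3.45 CPM with R1881, without overlap (log2FC −0.57 ± 0.19, adjusted p = 0.0236). The call was lost without LNCaP siScr R1881 replicate 1 or 3 or LNCaP vehicle replicate 3 (adjusted p up to 0.125). The R1881 responses of the lines differed by −2.22 ± 0.25 (adjusted p = 1.83e-06). IRF7, which drives the later wave of interferon production, was at 9.74, 7.18 and 7.81 CPM in LNCaP siScr with R1881 and 11.2, 10.6 and 11.3 CPM with knockdown, without overlap (log2FC 0.43 ± 0.14, adjusted p = 0.0476). With the GC trend removed its log2FC was 0.02 (adjusted p = 0.961), and with DESeq2's size factors used in edgeR the adjusted p was 0.0504. In C4-2 IRF7 was not called for R1881 or knockdown (−0.06 ± 0.15 and 0.23 ± 0.14). STAT2 was not called in a line taken alone, with 47.2, 46.8 and 45.5 CPM in C4-2 siScr R1881 and 52.9, 59.7 and 53.04 CPM with knockdown (log2FC 0.24 ± 0.09, adjusted p = 0.0651). The knockdown responses of the lines differed by 0.42 ± 0.10 (adjusted p = 0.0128), a call lost without C4-2 dual knockdown replicate 2 (adjusted p up to 0.0536). IRF9 was not called in any comparison, and 48.4% of its exon bases are shared with another annotated gene, where reads could not be assigned.

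ISG15 is a ubiquitin-like protein that is attached to targets by UBE2L6 with the ligase HERC5 and removed by USP18. HERC5 rose with R1881 in both lines, with no overlap in either. It went from 2.63, 3.15 and 2.69 to 11.2, 10.6 and 11.5 CPM in LNCaP (log2FC 1.95 ± 0.14, adjusted p = 5.91e-09). In C4-2 it went from 0.414, 0.630 and 0.291 to 8.36, 8.49 and 7.77 CPM (log2FC 4.03 ± 0.21, adjusted p = 2.67e-09). The rise was larger in C4-2 by 2.07 ± 0.26 (adjusted p = 6.10e-06), from a vehicle level of 8, 11 and 1 reads. Dual knockdown took HERC5 to 13.9, 12.95 and 13.96 CPM in C4-2, above all siScr libraries (log2FC 0.72 ± 0.13, adjusted p = 0.00151). It left HERC5 at 12.1, 11.7 and 9.97 CPM in LNCaP (log2FC 0.03 ± 0.12, adjusted p = 0.888), the responses differing by 0.71 ± 0.17 (adjusted p = 0.00963). HERC6, a close relative of HERC5, rose from 14.1, 15.4 and 14.3 to 34.9, 36.9 and 36.6 CPM in LNCaP and from 13.2, 12.1 and 17.2 to 32.7, 32.6 and 32.1 CPM in C4-2, again without overlap (1.29 ± 0.08 and 1.26 ± 0.12 on the log2 scale). With dual knockdown HERC6 was at 25.5, 27.6 and 26.9 CPM in C4-2, all below siScr R1881, without passing the test. In LNCaP its knockdown and siScr R1881 libraries overlapped. UBE2L6 was at 3.50, 3.43 and 2.31 CPM in LNCaP with vehicle and 0.930, 1.54 and 1.78 CPM with R1881, all lower (log2FC −1.14 ± 0.28, adjusted p = 0.00302), and at 2.53, 2.78 and 1.97 CPM with dual knockdown (log2FC 0.80 ± 0.28, adjusted p = 0.0674).

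ISG15 itself was at 31.6, 28.05 and 26.1 CPM in LNCaP siScr with R1881 and 45.2, 39.6 and 34.2 CPM with dual knockdown, all knockdown libraries being higher (log2FC 0.49 ± 0.12, adjusted p = 0.0164). This call was lost without LNCaP dual knockdown replicate 1 or 2 or LNCaP siScr R1881 replicate 2 or 3 (adjusted p up to 0.0858). In C4-2 the libraries overlapped, at 32.99, 25.2 and 26.4 CPM and 35.8, 21.3 and 21.6 CPM (log2FC −0.11 ± 0.17, adjusted p = 0.701). R1881 raised ISG15 in LNCaP (log2FC 0.34 ± 0.13, adjusted p = 0.04), where the libraries overlapped and the call was lost without LNCaP siScr R1881 replicate 1 or 2 or LNCaP vehicle replicate 2 (adjusted p up to 0.174). The R1881 responses differed by −0.77 ± 0.25 (adjusted p = 0.0399), a call lost in 8 of 18 fits without 1 library (adjusted p up to 0.149). DTX3L, a ubiquitin ligase that works with PARP9, fell with R1881 in C4-2 from 51.2, 50.1 and 57.4 to 33.2, 32.04 and 31.6 CPM (log2FC −0.70 ± 0.11, adjusted p = 0.000193). It rose with dual knockdown to 39.5, 51.7 and 43.4 CPM (log2FC 0.47 ± 0.11, adjusted p = 0.0055). The groups did not overlap in either comparison. In LNCaP it went from 48.7, 56.4 and 48.3 to 57.5, 57.9 and 62.7 CPM with R1881 (log2FC 0.20 ± 0.08, adjusted p = 0.0498). This lay at the edge of the threshold, and the call was lost without LNCaP siScr R1881 replicate 1 or 3 or LNCaP vehicle replicate 1 or 3 (adjusted p up to 0.159). USP18 rose with dual knockdown in C4-2 from 13.7, 14.4 and 13.2 to 19.9, 18.2 and 19.4 CPM (log2FC 0.47 ± 0.11, adjusted p = 0.00598). TRIM25, the ligase that activates RIG-I, fell with R1881 in both lines (−0.47 ± 0.06 in LNCaP and −0.45 ± 0.07 in C4-2), and TRIM21 was not called for R1881 or knockdown.

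PARP14, an ADP-ribosyltransferase, was at 23.5, 26.5 and 29.1 CPM in C4-2 siScr with R1881 and 37.9, 47.5 and 48.9 CPM with dual knockdown, all higher (log2FC 0.76 ± 0.12, adjusted p = 0.000566). In LNCaP the values were 13.9, 14.9 and 15.5 and 10.5, 10.6 and 13.2 CPM, all lower, without passing the test (log2FC −0.35 ± 0.12, adjusted p = 0.0623). The responses differed by 1.13 ± 0.17 (adjusted p = 0.000215). PARP9 was not called for either treatment. In C4-2 its knockdown libraries, at 30.5, 34.5 and 34.3 CPM, all lay below those of siScr R1881, at 39.2, 42.2 and 37.9 CPM.

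Among the restriction factors, SAMD9 had the largest log2FC with dual knockdown in C4-2. SAMD9 is a cytoplasmic inhibitor of poxvirus replication (chr7:93099513-93118023, minus strand). It was at 1.92, 2.23 and 1.75 CPM in C4-2 with vehicle, 0.825, 0.618 and 1.16 CPM with R1881 and 4.87, 6.15 and 7.60 CPM with dual knockdown. The 3 groups did not overlap, and the knockdown libraries were above both others (log2FC −1.22 ± 0.30, adjusted p = 0.00621 for R1881 and log2FC 2.83 ± 0.27, adjusted p = 8.50e-06 for knockdown). In LNCaP it was at 3.33, 3.15 and 3.13 CPM with vehicle, 8.97, 10.2 and 8.50 CPM with R1881 and 10.1, 10.8 and 9.44 CPM with dual knockdown, the last 2 overlapping (log2FC 1.51 ± 0.14, adjusted p = 1.47e-07 for R1881 and log2FC 0.15 ± 0.13, adjusted p = 0.458 for knockdown). The lines differed by −2.75 ± 0.30 for R1881 (adjusted p = 1.25e-06) and by 2.70 ± 0.27 for knockdown (adjusted p = 1.82e-06). SAMD9L, its neighbour, had 0 to 7 reads per group and could not be tested.

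RSAD2, or viperin, makes a nucleotide that stops viral polymerases. It had 7, 8 and 1 reads in the C4-2 vehicle libraries and 0 reads in all 3 siScr R1881 libraries. It was thus at least 6.94-fold lower with R1881, taken against a floor of 3 reads over the group and with no allowance for counting error in the vehicle reads. RSAD2 did not pass the filter on low counts in C4-2, so this fall was not tested. With dual knockdown it had 1, 0 and 1 reads. In LNCaP it rose from 0.438, 0.649 and 0.165 to 1.15, 1.54 and 1.09 CPM (log2FC 1.52 ± 0.48, adjusted p = 0.0162), lost without LNCaP siScr R1881 replicate 2 or LNCaP vehicle replicate 3 (adjusted p up to 0.0792). With R1881 RSAD2 was at least 21.6-fold lower in C4-2 than in LNCaP, taken against the same floor. MX1, CMPK2 and BST2 were called for neither treatment in either line, and MX2 was not called in C4-2 and not tested in LNCaP. IFITM1 fell with R1881 in C4-2 from 7.20, 7.56 and 9.03 to 3.52, 4.61 and 4.04 CPM (log2FC −0.94 ± 0.19, adjusted p = 0.00152). IFITM3 was at 40.2, 33.6 and 37.2 CPM in LNCaP siScr with R1881 and 47.8, 45.98 and 42.97 CPM with dual knockdown, all higher (log2FC 0.32 ± 0.09, adjusted p = 0.0322). The call was lost without LNCaP dual knockdown replicate 1 or 2 or LNCaP siScr R1881 replicate 2 or 3 (adjusted p up to 0.145). In C4-2 the groups overlapped (log2FC 0.04 ± 0.11, adjusted p = 0.826). IFITM1 and IFITM2 share 351 exon bases, 32.5% and 22.7% of their lengths, and reads there could not be assigned.

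Of the other induced genes, IFI35, a partner of the interferon-induced protein NMI, was at 11.6, 9.39 and 11.7 CPM in C4-2 with vehicle, 3.08, 2.19 and 4.34 CPM with R1881 and 12.6, 9.22 and 10.4 CPM with dual knockdown. The siScr R1881 libraries lay below all others, and vehicle and knockdown overlapped (log2FC −1.75 ± 0.22, adjusted p = 2.33e-05 for R1881 and log2FC 1.74 ± 0.21, adjusted p = 5.44e-05 for knockdown). In LNCaP it was at 5.86, 4.82 and 6.48 CPM with vehicle, 9.24, 8.79 and 9.19 CPM with R1881 and 13.5, 10.7 and 10.1 CPM with dual knockdown. Each group lay above the one before (log2FC 0.66 ± 0.15, adjusted p = 0.00186 for R1881 and log2FC 0.35 ± 0.14, adjusted p = 0.115 for knockdown, which did not pass). The lines differed by −2.42 ± 0.28 for R1881 (adjusted p = 1.90e-06) and by 1.42 ± 0.26 for knockdown (adjusted p = 0.0013). IFI6, an inhibitor of apoptosis at mitochondria, rose with dual knockdown in both lines, without overlap in either. It went from 5.58, 4.47 and 6.67 to 8.05, 8.02 and 8.32 CPM in LNCaP (log2FC 0.55 ± 0.16, adjusted p = 0.0324). In C4-2 it went from 7.64, 7.64 and 5.997 to 17.98, 10.9 and 12.4 CPM (log2FC 0.95 ± 0.17, adjusted p = 0.00108). The LNCaP call was lost without LNCaP dual knockdown replicate 1, 2 or 3 or LNCaP siScr R1881 replicate 1 or 2 (adjusted p up to 0.144), and in C4-2 knockdown replicate 1 was the highest library.

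LGALS3BP, a secreted glycoprotein, fell with R1881 in C4-2 from 93.5, 90.6 and 81.3 to 38.4, 37.6 and 38.00 CPM (log2FC −1.23 ± 0.09, adjusted p = 9.61e-08) and was at 40.5, 35.4 and 32.2 CPM with dual knockdown (log2FC −0.08 ± 0.09, adjusted p = 0.557). In LNCaP its R1881 response was −0.15 ± 0.12 on the log2 scale, and the responses differed by −1.09 ± 0.15 (adjusted p = 3.05e-05). LAP3, an aminopeptidase that trims peptides, fell with dual knockdown in C4-2 from 101, 99.5 and 97.97 to 74.8, 77.9 and 74.4 CPM (log2FC −0.40 ± 0.07, adjusted p = 0.00105). The difference from LNCaP (−0.31 ± 0.09, adjusted p = 0.0349) lost its call in 10 of 18 fits without 1 library (adjusted p up to 0.103). IFI44 rose with R1881 in C4-2 (log2FC 0.82 ± 0.26, adjusted p = 0.0273), lost without C4-2 siScr R1881 replicate 1 or 2 or C4-2 vehicle replicate 1 or 2 (adjusted p up to 0.132). PLSCR1 was called for neither treatment, IFI27 was not called in LNCaP and not tested in C4-2, IFI44L was not called in C4-2 and not tested in LNCaP, and XAF1, with 0 to 6 reads per group, could not be tested.

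The lines themselves differed in many of these genes, as they did in most genes tested, and with vehicle the share called was not far from that of all genes. With vehicle, 28 of 42 genes were called between C4-2 and LNCaP (66.7%, against 58.9% of 18684 genes), 17 higher and 11 lower in C4-2, where 29.4% of all genes were higher. With R1881 31 were called (73.8%, against 58.3%), 9 higher and 22 lower, where 28.6% of all genes were higher. The share lower in C4-2 was thus 26.2% with vehicle (29.5% of all genes) and 52.4% with R1881 (29.7% of all genes). BST2, or tetherin, which holds budding virus at the cell surface, was at 0.700, 0.974 and 0.989 CPM in LNCaP and 155, 132 and 149 CPM in C4-2 with vehicle (log2FC 7.29 ± 0.16, adjusted p = 4.11e-19). IFITM1 was at 0.700, 1.02 and 0.934 CPM in LNCaP and 7.20, 7.56 and 9.03 CPM in C4-2 (log2FC 3.09 ± 0.27, adjusted p = 2.44e-09). IFITM2, which like IFITM1 blocks viral entry, was at 4.46, 3.48 and 3.85 CPM in LNCaP and 31.1, 34.2 and 26.8 CPM in C4-2 (log2FC 3.01 ± 0.13, adjusted p = 4.40e-14). IRF7 was at 9.71, 7.70 and 9.39 CPM in LNCaP and 57.6, 52.4 and 51.3 CPM in C4-2 (log2FC 2.61 ± 0.16, adjusted p = 1.04e-11). All 4 were higher in every C4-2 library, and with R1881 their log2FC were 7.25, 2.76, 2.53 and 2.65. HERC5 was lower in C4-2 with vehicle (log2FC −2.51 ± 0.22, adjusted p = 2.81e-09), and less so with R1881 (log2FC −0.44 ± 0.12, adjusted p = 0.00428). SAMD9 was lower in C4-2 with vehicle (log2FC −0.66 ± 0.21, adjusted p = 0.0112, or 0.182 with the GC trend removed) and further so with R1881 (log2FC −3.40 ± 0.21, adjusted p = 8.59e-12). IFIT1, OAS3 and DTX3L, at log2FC of −0.10, 0.22 and 0.03 with vehicle and not called, were lower with R1881 at −2.49, −1.38 and −0.88.

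Scaled for gene length (RPKM, the CPM per kilobase of exon), BST2 was the highest of the 44 in each C4-2 group, at 129.7 ± 10.9 RPKM with vehicle, 139 ± 8.41 RPKM with R1881 and 164 ± 26.8 RPKM with dual knockdown (mean ± SD, n = 3). ADAR followed at 51.6 ± 1.65, 46.4 ± 1.20 and 41.2 ± 2.64 RPKM, and IFITM3 at 51.3 ± 6.17, 39.7 ± 2.12 and 41.03 ± 7.14 RPKM. The levels of these 2 were thus within their SD of each other with vehicle and with knockdown. Another annotated gene shares 21.3% of the exon bases of IFITM3, where reads could not be assigned, so its level per length may be understated. In LNCaP ADAR was the highest with vehicle and with R1881, at 47.7 ± 1.59 and 46.8 ± 1.43 RPKM, and with dual knockdown ISG15 (42.1 ± 5.84 RPKM) and ADAR (39.7 ± 1.73 RPKM) were within the SD of ISG15.

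Beyond the 44 genes, 42 other genes of the pathway were examined, of which 25 to 27 passed the filters. The 8 interferon genes listed had 16 reads in all over the 18 libraries and at most 3 in a library, so that none of the 8 was detectable beyond a few reads at this depth. Other interferon genes were not examined. Of 25 tested in C4-2, 8 rose and 2 fell with R1881, where 17.1% of all genes rose and 15.7% fell. With dual knockdown 2 of them rose and 7 fell, where 12.7% of all genes rose and 10.8% fell. Of 26 tested in LNCaP, 8 rose and 6 fell with R1881, where 23.5% of all genes rose and 23.2% fell. With dual knockdown 1 rose and 2 fell, where 8.27% of all genes rose and 5.89% fell. TLR3, the endosomal receptor for double-stranded RNA, fell with R1881 in C4-2 from 4.19, 5.67 and 7.87 to 1.87, 1.85 and 1.16 CPM (log2FC −1.77 ± 0.27, adjusted p = 0.000171). It rose to 3.64, 4.88 and 4.30 CPM with dual knockdown (log2FC 1.38 ± 0.26, adjusted p = 0.00178), and neither pair of groups overlapped. In LNCaP TLR3 had log2FC of −0.10 ± 0.23 and 0.16 ± 0.22. The lines differed for R1881 (adjusted p = 0.00233) and for knockdown (adjusted p = 0.0247). The second call was lost without C4-2 dual knockdown replicate 2 or 3, C4-2 siScr R1881 replicate 3, LNCaP dual knockdown replicate 3 or LNCaP siScr R1881 replicate 2 (adjusted p up to 0.0906). The sensor RIG-I (DDX58), the sensor LGP2 (DHX58) and IRF3 were not called for dual knockdown in C4-2, with log2FC of 0.10, 0.04 and 0.03, and MAVS fell (log2FC −0.34 ± 0.09, adjusted p = 0.0109). Of 9 genes derived from endogenous retroviruses, 5 were tested in C4-2. ERVMER34-1 rose with dual knockdown from 10.6, 12.3 and 10.95 to 23.1, 28.1 and 24.4 CPM (log2FC 1.15 ± 0.13, adjusted p = 3.42e-05). ERV3-1 fell from 7.86, 9.55 and 10.5 to 4.01, 4.39 and 4.92 CPM (log2FC −1.07 ± 0.16, adjusted p = 0.000247). In LNCaP 6 of the 9 were tested, and with R1881 2 rose and 2 fell (23.5% and 23.2% of all genes). With dual knockdown in LNCaP 0 rose and 0 fell (8.27% and 5.89% of all genes). ERVV-2 had 0 reads in LNCaP with vehicle and 46 with R1881, at least 15.9-fold more against the floor of 3 reads over the group. Counts of repeats outside annotated genes were not analysed here.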

How the data were processed

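Poly(A) RNA was sequenced with paired ends. The authors trimmed reads with Trim Galore, aligned them to GRCh38 with STAR and deposited raw counts per gene from featureCounts 1.5.0-p1 with the Ensembl 83 annotation. The stated options name neither strand nor counting of overlaps, so reads in bases shared by genes were left unassigned and antisense reads were not told apart. Libraries were grouped by title.

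Genes were tested with edgeR 4.0.16 in R 4.3.3 (TMM scaling, filterByExpr, quasi-likelihood F-test, 2-sided, Benjamini-Hochberg adjustment over all genes tested), on the 9 libraries of a line or, for differences between lines, on all 18. CPM and RPKM were scaled to TMM effective library sizes over all 18 libraries. Genes were called at an adjusted p under 0.05, and separately with a log2FC of at least 1 in size. The code was tested on simulated data. Alternatives were DESeq2 1.42.0, its size factors, other filters, removal of a GC trend, other sets of libraries, a replicate block and leaving out each library. The members and lists were chosen with earlier results of these data known. Values per library were given by a rule: called genes of at least 1 CPM, the 8 of largest log2FC per dual knockdown comparison and 5 per other comparison, the 3 highest per length, and those moving in opposite directions in the lines. Other genes given by library (among them IFIT2, IFIH1, STAT2, LAP3, LGALS3BP and RSAD2) were chosen after their values were seen. Promoters are RefSeq sequences of GRCh38.p14.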

Additional observations from a re-analysis of the deposited data

Results flagged for a closer look

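For 16 genes the response to R1881 differed between C4-2 and LNCaP by an interaction term in edgeR's quasi-likelihood F-test over all 18 libraries, at an adjusted p under 0.05. The differences in log2FC, C4-2 minus LNCaP, were below 0 for DTX3L (−0.91), IFI35 (−2.42), IFIH1 (−1.25), IFIT1 (−2.38), IFIT2 (−1.66), IFIT3 (−2.47), IFITM3 (−0.59), IRF1 (−2.22), ISG15 (−0.77), LGALS3BP (−1.09), OAS1 (−3.41), OAS2 (−3.50), OAS3 (−1.61) and SAMD9 (−2.75). For RSAD2, which had 0 reads in the C4-2 siScr libraries with R1881, the difference was at most −4.32 with that group set to the floor of 3 reads. It was above 0 for HERC5 (2.07).

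The same kind of test gave 11 genes whose change with dual knockdown was not equal in the 2 lines. The differences were above 0 for DTX3L (0.64), HERC5 (0.71), IFI35 (1.42), IFIT1 (1.92), IFIT2 (0.99), IFIT3 (1.80), OAS3 (0.64), PARP14 (1.13), SAMD9 (2.70) and STAT2 (0.42), and below 0 for LAP3 (−0.31). KDM1A and KDM7A were themselves lowered further in C4-2, and the part of that in these differences was not tested.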

How the results depend on the processing

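No gene called in a comparison changed direction there under any alternative run in which it was tested. The direction of genes that were not called was not followed. With at least 10 counts required in every library, fewer of the 44 genes were tested (25 to 33), and those called with a log2FC of at least 1 in size were 5 for R1881 in LNCaP, 7 for R1881 in C4-2, 2 for dual knockdown in C4-2, 7 for the difference between lines in the R1881 response, 3 for that in the dual knockdown response, and 7 between the lines with vehicle and 7 with R1881. At an adjusted p under 0.05 that filter left 10 genes for the difference in the R1881 response and 19 between the lines with R1881. For dual knockdown in LNCaP, where 5 genes were called, 1 was called with the GC trend removed, 8 when only the groups compared were fitted and 1 with the replicate block and the GC trend removed; the cause was not tested. Leaving out 1 library gave 0 to 6 genes there and 7 to 16 for the difference between lines in the dual knockdown response. No pairing by replicate number was seen, as deviations from the group means of libraries with the same number correlated at −0.074 to 0.072. With 3 libraries per group, these correlations cannot show that the libraries were unpaired. With the replicate block 19 genes were called for R1881 in LNCaP, 20 in C4-2, 6 for dual knockdown in LNCaP and 16 in C4-2. With DESeq2 13 of the 44 genes were called for dual knockdown in C4-2 and 6 in LNCaP (4 higher and 2 lower). Over all genes, those past a log2FC of 1 in size for dual knockdown in LNCaP were 49, against 14 with DESeq2 and 11 with the GC trend removed. For dual knockdown in C4-2 the replicate block with the GC trend removed gave 14 genes higher and 5 lower. The shallow C4-2 vehicle replicate 3 and levels near 1 CPM limit what was detectable for OAS2, OASL, RSAD2 and IFIT1.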
